A study of Mus musculus with 8 samples.

Results

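The 9 genes described here were taken as a set for making, binding, sensing and breaking down retinoic acid. They are the retinaldehyde dehydrogenase genes Aldh1a1 and Aldh1a3, the Aldh1a1 paralog Aldh1a7, the retinoic acid binding protein gene Crabp1, the receptor genes Rara, Rarb, Rxra and Rxrg, and the oxidase gene Cyp26b1. Whether the enzyme of Aldh1a7 makes retinoic acid was not examined. They were chosen by role, with earlier results of these data known. Each was read from the probeset whose single annotated gene symbol was that of the gene. This gave 9 probesets for 9 genes among 21789 single-symbol probesets and 35512 probesets in all. Of the 9 genes, 6 reached a linear signal of 60 in the mean of at least 1 group and were tested. RNA from sorted midbrain dopaminergic neurons was hybridized to 8 Affymetrix Mouse Gene 1.0 ST arrays, 2 in each of 4 groups. The study compared the substantia nigra pars compacta (SNc) with the ventral tegmental area (VTA), and wild type (WT) with Pitx3 knockout (KO) tissue, in a search for genes tied to the vulnerability of ventral SNc neurons. SNc WT and VTA WT came from Pitx3+/+;Th-EGFP+/- pups, and SNc KO and VTA KO from Pitx3-/-;Th-EGFP+/- pups, all of the C57Bl/6 strain and 1 to 4 days old (P1-P4). Every group, the wild type included, carried the Th-EGFP transgene, whose green fluorescence follows the tyrosine hydroxylase promoter and was, together with exclusion of the dead-cell dye propidium iodide, the basis of the sort. The sort therefore selected on the transgene and not on Pitx3, and the knockout was carried by every cell of the animal from conception. The methods describe 4 preparations of sorted cells with RNA purified from each in duplicate, in batches of stored cells, and nothing says that the 2 arrays of a group came from separate animals, so that p-values measure the spread between these arrays, which may be technical.

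Retinoic acid is made from vitamin A in successive oxidations, the last of which, from retinaldehyde to the acid, is carried out by retinaldehyde dehydrogenases. Inside the cell the acid is held by binding proteins such as Crabp1, activates nuclear receptors made of a retinoic acid receptor (RAR) paired with a retinoid X receptor (RXR), and is cleared by the Cyp26 oxidases. In the midbrain Aldh1a1 is known as a marker of ventral SNc neurons and as a gene that depends on Pitx3, a homeodomain factor of midbrain dopaminergic neurons, and its enzyme also oxidises the aldehyde formed from dopamine.

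Pitx3 itself was at log2 signals of 7.72 and 7.63 in SNc WT, 7.87 and 7.94 in SNc KO, 8.10 and 7.84 in VTA WT, and 8.08 and 7.92 in VTA KO. Its probeset was thus not lower in the knockout, and since the part of the gene that its probes cover and the part that was deleted were not known here, it checks no label. All 13 dopaminergic markers examined, Th among them, and all 8 general neuronal markers exceeded a linear signal of 60 in every group. Array medians lay between 6.11 and 6.24 on the log2 scale, and 55.0% to 58.9% of probesets exceeded 60, the signal minimum that the study used. The 2 VTA KO arrays were the farthest apart, with a root mean square SD of 0.40 log2 units over all 35512 probesets, against 0.27 to 0.29 in the other groups. In VTA KO the pericyte marker Rgs5 was at 10.29 in replicate 1 and 6.22 in replicate 2, and the summed signal of 10 pericyte and smooth muscle markers ran from 9.18 to 11.32 on the log2 scale.

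Aldh1a1 and Aldh1a7 are neighbours on mouse chromosome 19. Of the genes in the RefSeq annotation of GRCm38.p6, 3 lie between their starts, 0 of them protein coding. RefSeq promoters of 300 bases, from 250 before to 50 after a start, were at hand for 8 of the 9 genes, with 14 starts in all, and Aldh1a3 had none. The 250 bases before the start are printed, 5′ to 3′ on the strand of the gene, for the 2 genes whose signals moved most with genotype. Over these 250 bases the 2 sequences matched at 183 of 269 alignment columns, or 68.0%, and the capitals mark their longest shared run, 65 bases that begin 94 bases before the start in both and occur in 2 of all 32851 promoters. The Aldh1a1 stretch is chr19:20601718-20601967 on the plus strand and the Aldh1a7 stretch chr19:20727557-20727806 on the minus strand (GRCm38.p6).
Aldh1a1: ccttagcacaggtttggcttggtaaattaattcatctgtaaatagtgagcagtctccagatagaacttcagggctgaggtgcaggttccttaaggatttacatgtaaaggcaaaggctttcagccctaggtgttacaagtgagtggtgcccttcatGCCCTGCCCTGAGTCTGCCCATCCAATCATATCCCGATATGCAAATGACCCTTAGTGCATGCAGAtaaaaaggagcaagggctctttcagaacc
Aldh1a7: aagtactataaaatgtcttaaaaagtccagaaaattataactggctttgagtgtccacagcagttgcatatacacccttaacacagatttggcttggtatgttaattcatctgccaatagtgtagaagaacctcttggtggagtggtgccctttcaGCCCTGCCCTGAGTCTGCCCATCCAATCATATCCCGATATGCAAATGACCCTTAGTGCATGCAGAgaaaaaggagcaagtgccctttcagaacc
A second annotated Aldh1a1 start was less like that of Aldh1a7, with 54.0% identity and a longest shared run of 8 bases, so the printed start was chosen after both had been compared. The shared run holds the octamer ATGCAAAT, the letters bound by POU factors, 56 bases before the start of each gene. Searched on both strands, the octamer was present in 2 of the 14 promoters of these genes and in 1.74% of all promoters, and it was looked for after the sequences had been seen. TAATCC, the bicoid-type motif that Pitx factors bind, was in 0 of the 14 promoters and in 7.06% of all, which says only that these letters are not in these windows. AAAGGTCA, the motif bound by the dopaminergic factor Nr4a2, was in the Rxrg promoter, 90 bases before the start, in the Rxra promoter, 50 bases before it, and in 1.51% of all.

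The Rarb promoter is shown because it carries the classical retinoic acid response element, a direct repeat of the receptor half-site through which the receptor gene responds to its own ligand. The capitals mark the match to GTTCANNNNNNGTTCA, which begins 52 bases before the start in the stretch chr14:16575477-16575726 on the minus strand (GRCm38.p6).
Rarb: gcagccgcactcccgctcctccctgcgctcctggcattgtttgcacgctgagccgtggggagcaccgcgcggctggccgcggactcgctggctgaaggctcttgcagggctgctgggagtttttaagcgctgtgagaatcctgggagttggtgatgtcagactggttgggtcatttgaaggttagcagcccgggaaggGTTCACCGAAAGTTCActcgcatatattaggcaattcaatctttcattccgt
The match was the only one among the 14 promoters, and 0.0761% of all promoters held one on either strand. Its letters did not overlap those of the other motifs searched.

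Aldh1a1 was high in both wild-type regions and lower in both knockout regions. Its log2 signal was 11.26 and 11.38 in SNc WT, 8.33 and 8.69 in SNc KO, 11.38 and 11.16 in VTA WT, and 9.78 and 9.45 in VTA KO. The 4 wild-type arrays lay above all 4 knockout arrays, the wild-type regions overlapped, and both SNc KO arrays lay below both VTA KO arrays. In the SNc the mean went from 11.32 ± 0.08 to 8.51 ± 0.25 (SD, n = 2 each), a log2 difference of -2.81 (SE 0.18, 95% interval -3.24 to -2.38, adjusted p = 0.0125 by limma with Benjamini-Hochberg adjustment over 22112 probesets), so that it fell 7.03-fold. It was the 6th lowest difference of all probesets tested. Fewer cells that express a gene and less of its RNA per cell cannot be told apart in bulk RNA of sorted cells. According to the paper, the ventral neurons that depend on Pitx3 are already gone from the newborn knockout SNc. Cells sorted there were thus dorsal ones, whereas most wild-type SNc cells expressed Pitx3. In the knockout VTA, it states, the corresponding neurons are still there at birth and die later. By this account the SNc groups held different kinds of neuron, so the SNc and VTA comparisons are not alike. The share of cell loss in the Aldh1a1 difference was not tested.

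In the VTA the mean of Aldh1a1 went from 11.27 ± 0.15 to 9.62 ± 0.23 (SD, n = 2 each), a log2 difference of -1.65 (SE 0.18, 95% interval -2.08 to -1.22, unadjusted p = 5.98e-05, adjusted p = 0.0827 by limma) or 3.15-fold, which did not pass the adjusted threshold of 0.05. Without VTA KO replicate 1 it was -1.82 and without replicate 2 it was -1.49, both with an adjusted p over 0.05. SNc WT and VTA WT differed by 0.05 (95% interval -0.38 to 0.48, adjusted p = 0.903), an interval that allows a difference in either direction. Among the knockout groups SNc KO was 1.11 log2 units lower than VTA KO (difference -1.11, SE 0.18, adjusted p = 0.112), and this became -0.95 without VTA KO replicate 1 (adjusted p = 0.163) and -1.27 without replicate 2 (adjusted p = 0.0358). The difference between the knockout effects of the 2 regions, tested as an interaction, was -1.16 (SE 0.25, unadjusted p = 0.00308, adjusted p = 0.344), so that a larger effect in the SNc was not shown after adjustment.

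Aldh1a7, a close paralog of Aldh1a1 whose probes may also bind Aldh1a1 transcripts, had its highest signal in SNc WT. The log2 signals were 7.83 and 7.73 in SNc WT, 5.20 and 5.33 in SNc KO, 6.52 and 6.29 in VTA WT, and 5.76 and 5.24 in VTA KO. Both SNc WT arrays lay above both VTA WT arrays, these above all knockout arrays, and the 2 knockout groups overlapped below the signal of 60, which is 5.91 on the log2 scale. In the SNc its mean went from 7.78 ± 0.07 to 5.27 ± 0.10 (SD, n = 2 each), so that it fell by 2.52 log2 units (SE 0.19, 95% interval -2.97 to -2.06, adjusted p = 0.0221 by limma), or 5.72-fold. Signals this low are near the background of the array, so the size of the fold is uncertain.

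The SNc WT mean of Aldh1a7 was 1.38 log2 units or 2.60-fold above the VTA WT mean (SE 0.19, 95% interval 0.92 to 1.84, unadjusted p = 0.000262, adjusted p = 0.0504 by limma), just outside the adjusted threshold. Under 6 of the other settings tried the adjusted p (limma) was between 0.00923 and 0.0476, but it was 0.0917 with no signal minimum and 0.0641 with the replicate block. The difference stayed between 1.27 and 1.49 when single arrays were left out. Whether it passed the adjusted threshold depended on which array that was. In the VTA the knockout difference was -0.90 (SE 0.19, unadjusted p = 0.00267, adjusted p = 0.235), and it was -1.17 without VTA KO replicate 1 and -0.64 without replicate 2. The interaction was -1.61 (SE 0.27, unadjusted p = 0.000776, adjusted p = 0.241), and SNc KO differed from VTA KO by -0.23 (adjusted p = 0.535), which became 0.03 without VTA KO replicate 1 and -0.49 without replicate 2. Both paralogs thus fell in SNc KO, while the arrays of the wild-type regions overlapped for Aldh1a1 and did not for Aldh1a7.

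**Figure D1:**
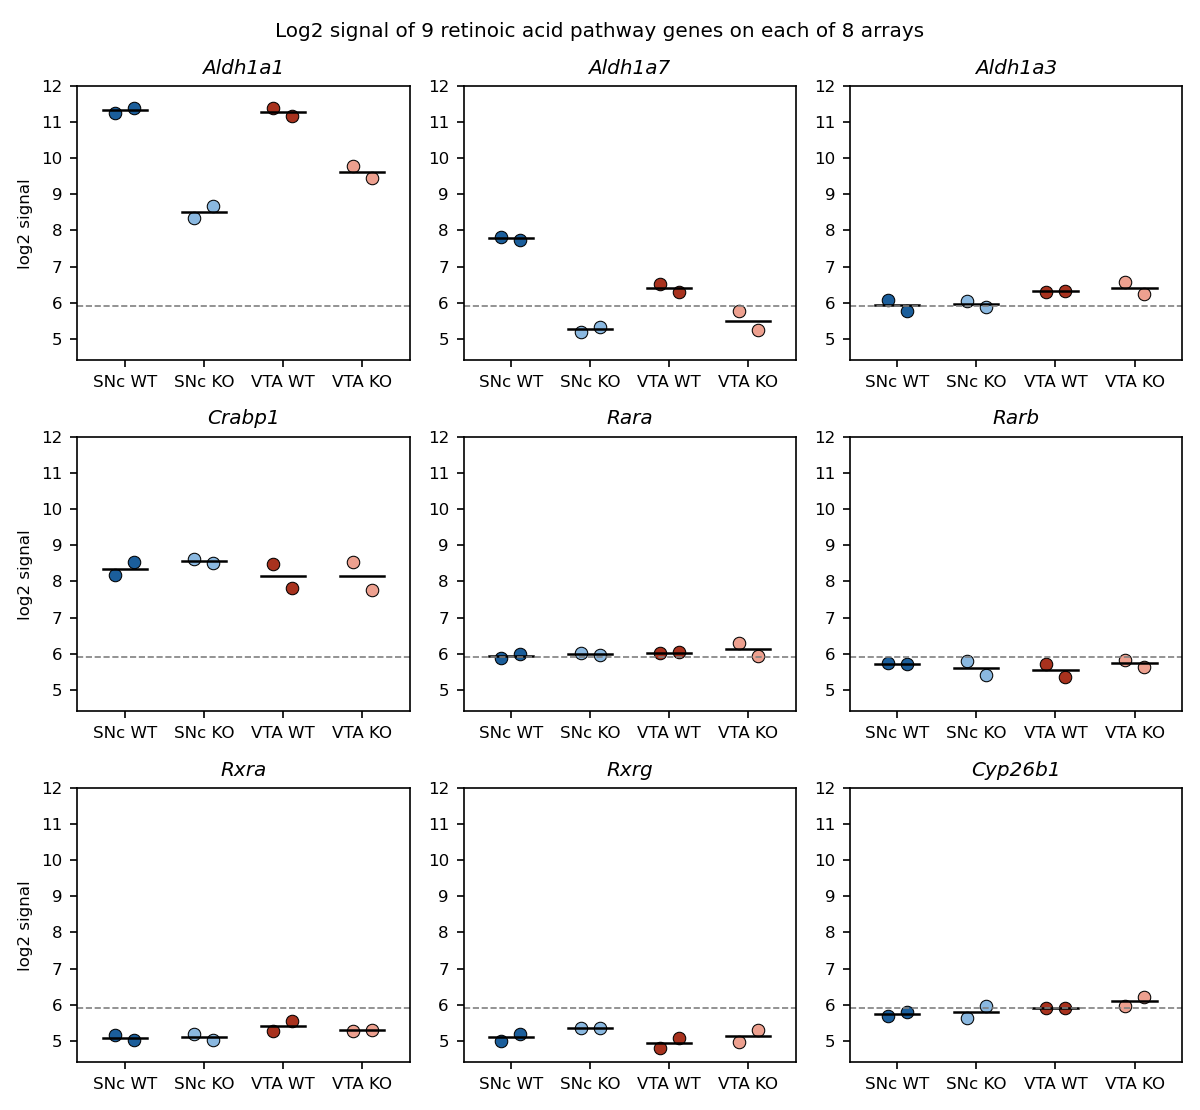
Log2 signal of each of the 9 genes (vertical axis) on each of the 8 arrays, by group. Points are arrays, horizontal bars are group means and the dashed line is the signal of 60 (5.91 on the log2 scale). Aldh1a1 runs from 8.33 to 11.38 and Aldh1a7 from 5.20 to 7.83, while Rarb, Rxra and Rxrg stay below the line on every array.

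Averaged over both regions, the knockout difference was -2.23 for Aldh1a1 (SE 0.13, 95% interval -2.54 to -1.93, adjusted p = 0.00606 by limma), the 4th lowest of 22112 probesets. For Aldh1a7 it was -1.71 (SE 0.13, adjusted p = 0.0132), the 15th lowest. The SNc calls of both genes depended on the arrays in the fit. Leaving out any 1 array of SNc WT, SNc KO or VTA WT took the adjusted p to between 0.0687 and 0.207 for Aldh1a1 and to between 0.0713 and 0.233 for Aldh1a7, and fitting the 4 SNc arrays alone took both to 0.0860. The difference stayed between -2.99 and -2.64 for Aldh1a1, and between -2.58 and -2.45 for Aldh1a7, when single arrays were left out.

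Other markers moved with genotype in the same arrays. In SNc KO all 10 pericyte and smooth muscle markers had a higher mean than in SNc WT, with a median difference of 0.79, none past the adjusted threshold, and their summed log2 signal was 10.96 to 11.10 against 9.56 to 9.70. All 6 tested meningeal fibroblast markers also had a higher mean in SNc KO, with a median of 0.53 and 0 past the adjusted threshold, and the summed signal of the 10 on the array was 9.40 to 9.49 against at most 9.04 in SNc WT. Pdgfrb is in both lists and, like the pericyte marker Anpep, passed the signal minimum through SNc KO alone. Of the untested fibroblast markers, Dcn and Lum had lower means in SNc KO, and Foxc1 and Slc6a13 higher ones. Of 8 microglia and macrophage markers 2 were tested, and they moved in opposite directions. The mean of Cx3cr1 was 6.86 in SNc WT and 7.04 in SNc KO, while Mrc1, a macrophage receptor gene, fell by 1.40 log2 units (adjusted p = 0.0380 by limma). Mrc1 was at 6.59 and 6.81 in SNc WT and at 5.19 to 5.48 on the other 6 arrays, so that it was also higher in SNc WT relative to VTA WT (difference 1.26, adjusted p = 0.0263), as the Aldh1a7 mean was. It passed the signal minimum through SNc WT alone, the group where it was high, so that both of its tests rest on that selection. The summed signal of the 8 was 8.84 to 8.99 in SNc WT and 8.62 to 8.82 in SNc KO. The summed signal of 5 glutamatergic markers was 10.20 to 10.25 in SNc KO and 9.20 to 9.43 in SNc WT, and that of 6 GABAergic markers 10.43 to 10.55 and 9.89 to 10.00. Most of the glutamatergic sum came from Slc17a6, with a mean of 10.00 in SNc KO and 8.92 in SNc WT. Slc17a7 and Slc17a8 also had higher means in SNc KO, and Tbr1 and Pou4f1 lower ones. Of the 13 dopaminergic markers 9 had a lower mean in SNc KO, with a median of -0.17. Drd2, the dopamine autoreceptor gene, fell by 0.98 log2 units (adjusted p = 0.0380 by limma), Slc6a3, the dopamine transporter gene, differed by -0.98 (adjusted p = 0.0770) and Th, which codes for tyrosine hydroxylase, by -0.08 (adjusted p = 0.938). Aldh1a1 and Aldh1a7 fell by more than any of these dopaminergic markers differed. The part of these shifts in the results on both genes was not tested, and the sizes alone do not test it.

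Aldh1a3, another retinaldehyde dehydrogenase gene of the set, did not differ by genotype beyond the spread between arrays. Its log2 signals were 6.07 and 5.77 in SNc WT, 6.05 and 5.89 in SNc KO, 6.30 and 6.33 in VTA WT, and 6.56 and 6.23 in VTA KO. The 4 VTA arrays lay above the 4 SNc arrays by a small margin, close to the signal minimum. The difference was 0.05 in the SNc (95% interval -0.34 to 0.44, adjusted p = 0.972) and 0.08 in the VTA (95% interval -0.31 to 0.48, adjusted p = 0.895), where it was -0.08 without VTA KO replicate 1 and 0.25 without replicate 2. Between regions it was -0.39 in the wild type (unadjusted p = 0.0511, adjusted p = 0.268) and -0.42 in the knockout (unadjusted p = 0.0379, adjusted p = 0.261), neither of which passed. Aldh1a2, a retinaldehyde dehydrogenase gene outside the set, was named for its family and stayed between 4.80 and 5.29 on all arrays, below the signal minimum.

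Crabp1, which binds retinoic acid in the cytoplasm, was well above the minimum in every group. Its log2 signals were 8.17 and 8.53 in SNc WT, 8.63 and 8.52 in SNc KO, 8.48 and 7.83 in VTA WT, and 8.54 and 7.76 in VTA KO. All groups overlapped with their neighbours in the order of means, and the 2 VTA groups each held 1 high and 1 low array. The knockout difference was 0.22 in the SNc (95% interval -0.54 to 0.99, adjusted p = 0.925) and 0.00 in the VTA (95% interval -0.76 to 0.77), intervals that would hold a change of 1.5-fold in either direction in the VTA. Without VTA KO replicate 1 the VTA value was -0.39 and without replicate 2 it was 0.39.

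Of the receptor genes, Rara was the only member of the set to be tested. It codes for a receptor that binds retinoic acid directly, and its log2 signals were 5.88 and 5.98 in SNc WT, 6.01 and 5.96 in SNc KO, 6.01 and 6.04 in VTA WT, and 6.30 and 5.93 in VTA KO. These lay close to the minimum and overlapped between genotypes in both regions. The differences were 0.05 in the SNc (95% interval -0.29 to 0.40, adjusted p = 0.966) and 0.09 in the VTA (95% interval -0.26 to 0.43, adjusted p = 0.871). Leaving out VTA KO replicate 1 gave a VTA value of -0.10, and leaving out replicate 2 gave 0.27.

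Rarb, Rxra and Rxrg stayed below a signal of 60 on every array and were therefore not tested. Rarb, a receptor gene that is itself induced by retinoic acid in many cells, lay between 5.35 and 5.82, Rxra between 5.02 and 5.55, and Rxrg between 4.80 and 5.35. Rarb, whose promoter with the direct repeat is printed above, was at 5.74 and 5.71 in SNc WT and at 5.79 and 5.40 in SNc KO, with overlap between all neighbouring groups. When the minimum was dropped from the fit, the knockout difference of Rarb was -0.13 in the SNc (95% interval -0.58 to 0.33) and 0.20 in the VTA (95% interval -0.26 to 0.65). Rxrg reached 5.20 in SNc WT and was at 5.34 and 5.35 in SNc KO, which did not overlap, and differed by 0.25 (95% interval -0.16 to 0.65) in that fit. A signal below the minimum says that a transcript was not clearly measured, not that it was missing. The other receptor genes of the family, Rarg and Rxrb, lay between 5.81 and 6.18, just around the minimum, and had knockout differences of 0.02 and 0.06 in the SNc and of -0.10 and -0.10 in the VTA.

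Cyp26b1, which oxidises retinoic acid to inactive forms, passed the minimum through the VTA KO group alone, the group where it was highest. Its VTA test thus rests on that selection. Its log2 signals were 5.69 and 5.79 in SNc WT, 5.63 and 5.97 in SNc KO, 5.91 and 5.89 in VTA WT, and 5.97 and 6.22 in VTA KO. The VTA KO arrays were the highest and did not overlap with VTA WT, as for 38.2% of all probesets tested, while the SNc groups overlapped. The knockout difference was 0.06 in the SNc (95% interval -0.31 to 0.43, adjusted p = 0.964) and 0.19 in the VTA (95% interval -0.17 to 0.56, adjusted p = 0.717). The SNc value was 0.23 without SNc KO replicate 1 and -0.11 without replicate 2, and the VTA value 0.32 without VTA KO replicate 1 and 0.07 without replicate 2. Of its relatives, Cyp26c1 lay between 5.63 and 6.05, and Cyp26a1 between 4.08 and 4.58, below the minimum on every array.

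**Figure D2:**
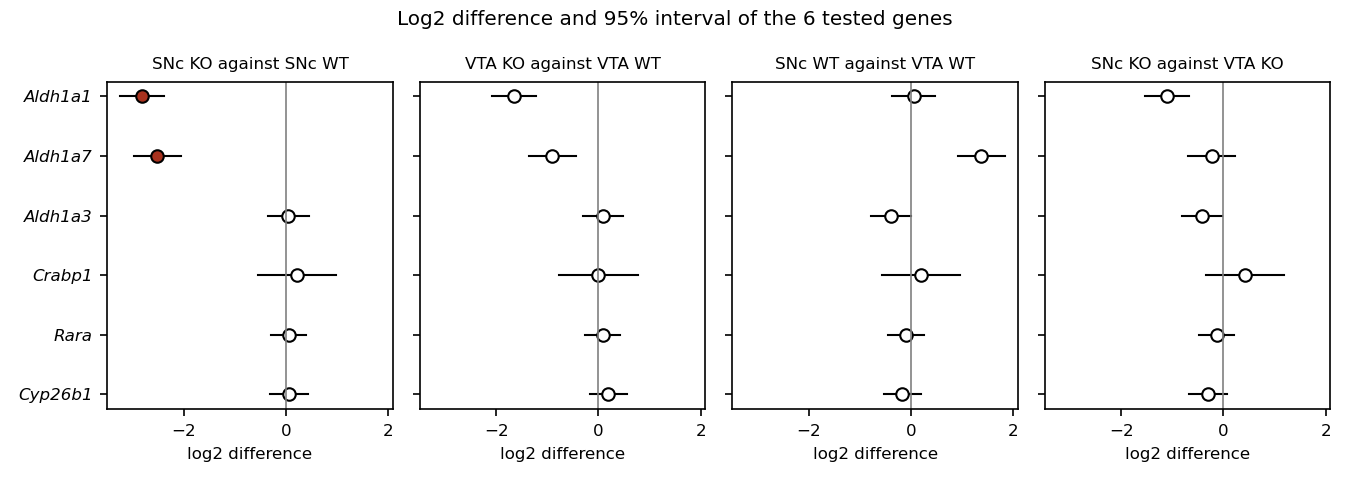
Log2 difference (horizontal axis) of the 6 tested genes in 4 comparisons, first group minus second. Points are limma estimates, bars are 95% intervals, and filled points passed an adjusted p of 0.05. Aldh1a1 and Aldh1a7 are filled in SNc KO versus SNc WT, at -2.81 and -2.52, and the intervals of the other 4 genes include 0 in that panel.

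Counted over the 6 tested genes, 2 fell and 0 rose in SNc KO versus SNc WT at an adjusted p under 0.05 (limma), where 0.0769% of all probesets tested fell and 0.149% were called in either direction. The genes were chosen with earlier results of these data known, so the shares give a scale and test no enrichment. In SNc WT versus VTA WT 0 of the 6 passed, against 0.439% of all probesets, and 1 had an unadjusted p under 0.05, as did 18.8% of all. In VTA KO versus VTA WT 0 passed, against 0.00904% of all, and 2 had an unadjusted p under 0.05, as did 10.2% of all. In SNc KO versus VTA KO 0 passed, against 0.149% of all, and 2 had an unadjusted p under 0.05, as did 17.5% of all. For the interaction 0 passed, as did 0% of all probesets, and 2 had an unadjusted p under 0.05, as did 9.89% of all, while for the average of the knockout effects 2 fell, against 0.136% of all.

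Thresholds like those of the study asked for a signal of 60 or more in either group, a change of 1.5-fold or more and an unadjusted limma p no higher than 0.05. They were met by Aldh1a1 and Aldh1a7 as lower in SNc KO relative to SNc WT, and by 1.76% of all probesets. The VTA knockout comparison gave the same pair of genes as lower, with 2.42% of all. Aldh1a7 was higher in the wild-type SNc relative to the wild-type VTA, as were 2.66% of all, and Aldh1a1 was lower in the knockout SNc relative to the knockout VTA, as were 3.5% of all. The interaction met the same thresholds below 0 for Aldh1a1 and Aldh1a7 and for 3.06% of all. Arrays of the 2 groups did not overlap for 4 of the 6 genes in SNc WT versus VTA WT, for 2 in SNc KO versus SNc WT, for 3 in VTA KO versus VTA WT and for 3 in SNc KO versus VTA KO. The shares of all probesets without overlap were 58.3%, 44%, 38.2% and 48.6%, so that lack of overlap was common with 2 arrays a group. The comparisons share arrays, since each group enters more than 1 of them.

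The genes whose pattern over the 8 arrays was most like that of Aldh1a1 and Aldh1a7 were found by centring each probeset on its own mean and taking the root mean square difference over the arrays, among 14665 other tested single-symbol probesets. Aldh1a1 itself varied by 1.19 log2 units about its mean. Nearest to it was Chrna6, a nicotinic receptor subunit gene of midbrain dopaminergic neurons, at 0.45, then its partner subunit gene Chrnb3 at 0.61, Aldh1a7 at 0.63, the transcription factor gene Rreb1 at 0.64 and Rgs6, a regulator of G protein signalling, at 0.66. Chrna6 had a log2 difference of -1.83 in the SNc (adjusted p = 0.0727), -1.10 in the VTA (adjusted p = 0.235) and 0.03 between the wild-type regions (adjusted p = 0.956), all of the same sign as those of Aldh1a1 and the knockout differences smaller in size.

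Aldh1a7 varied by 0.999 about its mean, and its nearest genes were Frmd4b at 0.38, Rgs6 at 0.38, the LIM-only gene Lmo3 at 0.41, Nos1ap, the adaptor of neuronal nitric oxide synthase, at 0.42, and the metalloprotease gene Adamts6 at 0.44. These 5 had differences from -2.25 to -1.60 in SNc KO versus SNc WT and from 0.92 to 1.23 in SNc WT versus VTA WT. Frmd4b and Adamts6 passed the adjusted threshold in both (SNc WT versus VTA WT, adjusted p = 0.0200 and 0.0318), and Rgs6 in the SNc alone (adjusted p = 0.0221). As seen from the pair itself, 2 probesets were nearer to Aldh1a1 than Aldh1a7 was, and 26 were nearer to Aldh1a7 than Aldh1a1 was. The likeness is a description over 8 arrays in 4 groups, which share their group differences.

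**Figure D3:**
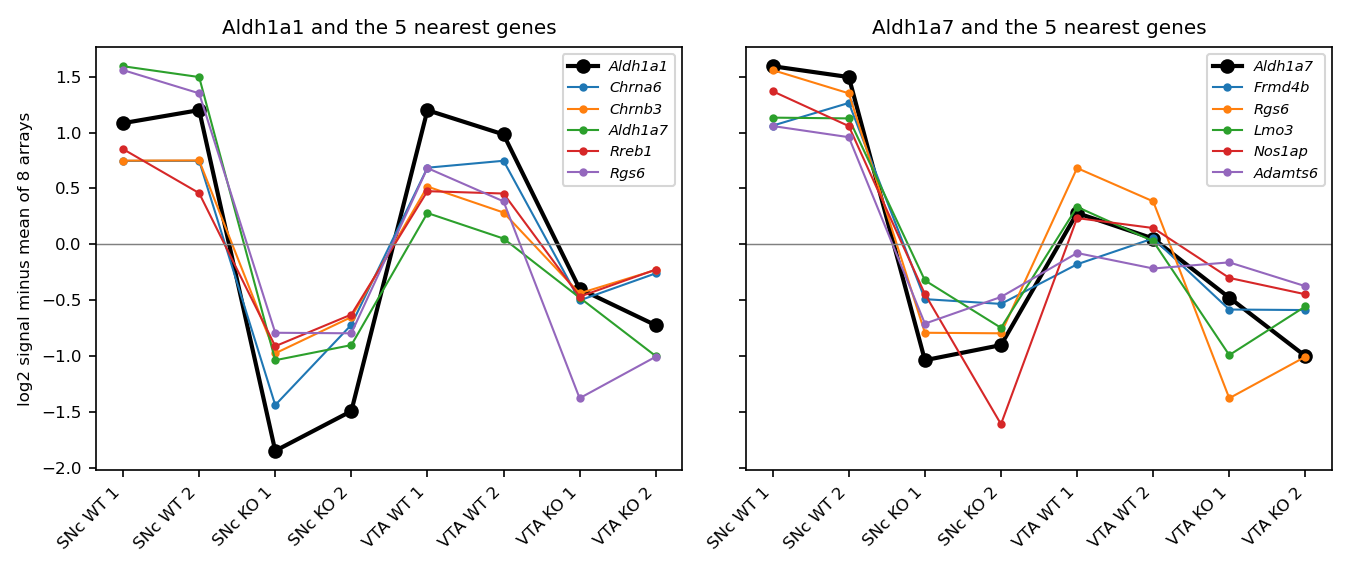
Log2 signal minus the mean of the 8 arrays (vertical axis) by array, for Aldh1a1 (left) and Aldh1a7 (right), each in black with its 5 nearest genes. Lines join the arrays of 1 gene and carry no order. Aldh1a1 is near 1 in both wild-type groups, whereas Aldh1a7 and its nearest genes stand highest in SNc WT, up to 1.59 for Aldh1a7.

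The rest of the pathway was examined in a list of 40 genes for retinol transport, retinaldehyde formation, binding, reception, breakdown and coregulators. On the array 36 of them had a probeset and 22 genes, with 23 probesets, were tested. At an adjusted p under 0.05 (limma) 0 passed in each of the 4 comparisons between groups, the interaction and the average. The median difference was -0.04 in SNc KO versus SNc WT, where that of all probesets was 0.01, and -0.10 in VTA KO versus VTA WT, where that of all was -0.02. In the wild type between regions it was -0.10, against 0.01 for all. The thresholds like those of the study were met in either direction by 4 of the 22 genes for the knockout effect in the SNc (3.6% of all probesets), 1 for that in the VTA (4.35%), 2 between the wild-type regions (6.62%) and 2 between the knockout regions (6.96%).

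Rbp4, which carries retinol in blood and out of cells, came nearest to the adjusted threshold. Its log2 signals were 7.09 and 7.58 in SNc WT, 6.60 and 6.45 in SNc KO, 7.51 and 7.70 in VTA WT, and 6.55 and 6.45 in VTA KO. All 4 wild-type arrays lay above all 4 knockout arrays, as for Aldh1a1. The difference was -0.81 in the SNc (SE 0.18, adjusted p = 0.265), -1.11 in the VTA (SE 0.18, adjusted p = 0.185) and -0.96 on average (SE 0.13, unadjusted p = 0.000213, adjusted p = 0.0617). Crabp2, which carries retinoic acid to the nucleus, was at 6.51 and 6.67 in SNc WT, 7.33 and 7.82 in SNc KO, 6.91 and 6.67 in VTA WT, and 6.64 and 6.55 in VTA KO. Both SNc KO arrays stood above the other 6, and the difference was 0.99 against SNc WT (SE 0.19, unadjusted p = 0.0016, adjusted p = 0.187) and 0.98 against VTA KO (adjusted p = 0.134).

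Dhrs3, which turns retinaldehyde back to retinol and is itself induced by retinoic acid, was at 6.86 and 6.50 in SNc WT, 7.48 and 7.56 in SNc KO, 7.45 and 7.32 in VTA WT, and 7.11 and 7.68 in VTA KO. The SNc WT arrays were the lowest, with a difference of 0.84 for the knockout in the SNc (adjusted p = 0.327) and of -0.70 in SNc WT versus VTA WT (adjusted p = 0.174). The other genes that met the thresholds like those of the study were Rdh13, a retinol dehydrogenase family gene, with -0.61 in SNc KO versus SNc WT, the retinol binding protein gene Rbp2 with -0.77 in SNc WT versus VTA WT, and Ttr, which carries retinol with Rbp4, with -0.92 in SNc KO versus VTA KO. Rbp2 passed the signal minimum through VTA WT alone, the group where it was high, at 5.64 and 6.36 against 5.20 and 5.28 in SNc WT. Its passing rests on 1 array, and the size of its difference leans on the same array. Ttr was at 6.75 and 7.54 in VTA KO and at 5.97 and 6.47 in SNc KO, so that the size of the Ttr difference leans on single arrays too. None of the 3 passed after adjustment, with adjusted p of 0.438, 0.166 and 0.208.

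A list of 19 genes that respond to retinoic acid in other tissues had 17 on the array and 14 tested. Here 1 passed the adjusted threshold, Rarres2, the gene of the secreted protein chemerin. It was at 6.62 and 6.37 in SNc WT, 7.19 and 6.87 in SNc KO, 8.86 and 8.63 in VTA WT, and 7.69 and 7.24 in VTA KO. Its VTA WT arrays stood above the other 6, and its level in SNc WT was below that in VTA WT (difference -2.25, SE 0.21, adjusted p = 0.0165 by limma). The VTA difference of VTA KO versus VTA WT was -1.28 (SE 0.21, adjusted p = 0.185). Markers of ependymal and other ciliated cells moved the same way. Of 48 tested probesets of 12 such genes, 47 had a lower mean in SNc WT, with a median of -1.45 and 7 past the adjusted threshold. Most of these probesets were of Dnah3 and Spef2. Of all 69 probesets of these genes, 11 reached a mean of 60 in SNc WT and 47 in VTA WT. The signal minimum itself thus favoured this direction among those tested. The summed log2 signal of the 69 was 11.54 to 11.68 in SNc WT, 13.07 to 13.36 in VTA WT and 12.16 to 12.89 in VTA KO. Astrocyte markers had a lower mean in SNc WT for 7 of 8 tested, with a median of -0.98 and 0 past the adjusted threshold, and a summed signal of 11.32 to 11.33 against 12.08 to 12.18 in VTA WT. Pericyte markers were lower for 10 of 10, with a median of -0.70, and meningeal fibroblast markers for 6 of 6, with a median of -0.58. The part of these markers in the result on Rarres2 was not tested.

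In SNc KO versus SNc WT 0 of the 14 responsive genes passed, and the median was 0.15 against 0.01 for all probesets. Meis1, a homeodomain factor gene, had a difference of 0.85 there (adjusted p = 0.318), with 6.14 and 5.96 in SNc WT and 7.12 and 6.68 in SNc KO, which did not overlap. In VTA KO versus VTA WT the median was 0.09 against -0.02 for all, with 0 passing. Nr2f2, an orphan receptor gene, differed by 0.78 in SNc WT versus VTA WT (adjusted p = 0.233), Meis2 by 0.84 in SNc KO versus VTA KO (adjusted p = 0.266), and Hoxa4 had an interaction of 0.59 (adjusted p = 0.473). Of the 14 genes, 10 had a higher mean and 4 a lower mean in the knockout of each region, but no gene was lower in both. The lower ones were Ntrk2, Nr2f1, Gap43 and Nr2f2 in the SNc, and Cdx1, Tgm2, Rarres2 and Hoxa4 in the VTA.

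The other aldehyde dehydrogenase genes gave a comparison within the enzyme family. All 15 were on the array, 11 were tested, and 0 were called in any comparison by either rule. Their medians were -0.04 in SNc KO versus SNc WT, -0.01 in VTA KO versus VTA WT, -0.02 in SNc WT versus VTA WT and 0.04 in SNc KO versus VTA KO.

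**Figure D4:**
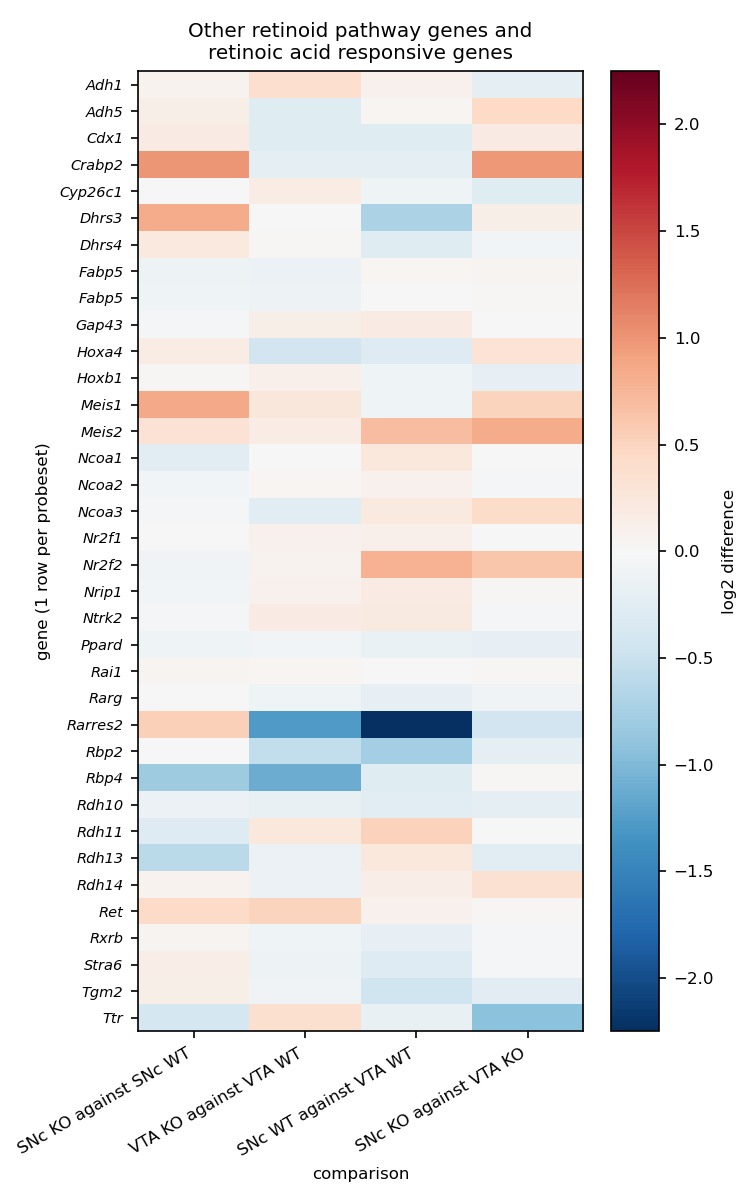
Log2 difference, by colour, of the 36 tested probesets of 35 other retinoid pathway and retinoic acid responsive genes (rows) in 4 comparisons (columns), first group minus second, with red for higher and blue for lower. The deepest colour is Rarres2 in SNc WT versus VTA WT, at -2.25, and Rbp4 is blue in both knockout columns, at -0.81 and -1.11.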

How the data were processed

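Cells of microdissected SNc and VTA were sorted by the authors, and total RNA was linearly amplified before hybridization to Affymetrix Mouse Gene 1.0 ST arrays. The deposited table holds log2 expression values, 1 column per array, which the authors computed with RMA Express. Its version, the genome build and any filter were not given in the sources used here. RMA commonly brings the probe values of all arrays to 1 distribution, which hides changes shared by most genes, and low signals are compressed toward background. Read depth has no meaning for arrays, and the number of arrays limits the precision.

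Genes were named from the platform annotation, in which 21789 probesets have 1 symbol, 1621 several and 12102 none. The log2 values were fitted with limma 3.58.1 in R 4.3.3, 1 mean per group over all 8 arrays (4 residual degrees of freedom, shared by all groups), for 22112 probesets with a linear group mean of at least 60 in at least 1 group. Tests were two-sided, calls required a Benjamini-Hochberg adjusted p under 0.05, and the fits were tested on simulated data. The LPE test of FlexArray, which the methods name, was not run. The methods print the direction of their p threshold the other way, and it was read as at most 0.05.

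The members and lists were chosen with earlier results of these data known. Named were all members, Pitx3 and the dopaminergic markers, genes of the 3 pathway lists past the adjusted threshold or else past thresholds like those of the study (at most 4 per list and comparison), and the 5 nearest patterns of members whose group means span at least 1 log2 unit. Aldh1a2, Rarg, Rxrb, Cyp26a1 and Cyp26c1 were added for their families, and Rgs5 and Mrc1 after their values were seen. Marker lists of other cell types were summed per array. Per group, 1 or 2 of 7 endothelial, 1 or 2 of 8 microglial and 0 of 1 red blood cell probesets reached a mean signal of 60, and the summed signal of 7 oligodendrocyte markers was 8.75 to 9.12 on the log2 scale. Promoters were RefSeq sequences, read with Python 3.11.15 and aligned with Biopython 1.88. Alternatives were 2 signal minimums, 2 scalings, the arrays in the fit, a variance trend, array weights, a replicate block, each array left out and the call rule.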

Additional observations from a re-analysis of the deposited data

How the results depend on the processing

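Every called value kept its sign under all alternatives. Aldh1a1 and Aldh1a7 were both called in SNc KO versus SNc WT (2 genes), a count that went to 0 with the arrays of these groups alone (adjusted p = 0.0860 for both, limma) and ranged from 0 to 2 when single arrays were left out, with 0 without any 1 array of SNc WT, SNc KO or VTA WT. For the average of the knockout effects the count of 2 ranged from 0 to 2. It was 0 without VTA WT replicate 1, either SNc WT array or SNc KO replicate 1, and 1 (Aldh1a1) without VTA WT replicate 2 or SNc KO replicate 2. In SNc WT versus VTA WT the count went from 0 to 1 (Aldh1a7) with a signal minimum of 100, with each array centred on its median, with quantile normalization, with these arrays alone, with a variance trend, with array weights and under the thresholds like those of the study, and ranged from 0 to 1 with single arrays left out. Those thresholds also gave 2 in VTA KO versus VTA WT, 1 in SNc KO versus VTA KO and 2 for the interaction. In SNc KO versus VTA KO leaving out single arrays gave 0 to 1. The cause of these changes was not tested. Over all probesets, calls in SNc KO versus SNc WT went from 33 to 0 with these arrays alone, 14 with no minimum and 89 with array weights. Of the values of single genes, 26 lost the threshold, 9 gained it, 24 moved by more than the replicate SD and 487 did neither.

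The replicate numbers of the titles did not pair the arrays: same-numbered arrays deviated together with correlations of 0.00577 to 0.0980 over 22112 probesets. A fit with the replicate number as a block gave a count of 0 in SNc KO versus SNc WT (adjusted p = 0.0528 for Aldh1a1 and Aldh1a7), with 3 calls over all probesets, and changed no other count of these genes. With 1 array left out of a pair, the lone array is assumed to vary like the other groups. Signals near 60 limit what can be said of Aldh1a3, Rara and Cyp26b1.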
